A study of Sus scrofa with 74 samples.

Results

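Muscles that scored high and low for 3 enzymes of glycogen and sugar breakdown were compared in the M. longissimus dorsi, the long back muscle, of pigs. The animals were chosen by their own expression values: 24 muscles with the highest and 24 with the lowest score were selected on PYGM, PGM1 and PGAM2, out of 74 muscles in all, and the other 26 lay between them. The score is the mean of the 3 genes' z values, that is, of their distances from the mean over all animals in standard deviations, on the log2 scale after every array had been scaled to a trimmed mean of 500. The animals' label numbers fall into 2 blocks, 1 to 33 and 60 to 114, and the groups were taken within each block, 8 and 16 animals a side. The labels do not say what the blocks stand for.

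All animals were F2 offspring of a cross of the breeds Duroc and Pietrain, which differ in the quantity and quality of their meat. The muscle was taken at slaughter at a mean end weight of 110 kg, frozen straight away and hybridized to an Affymetrix Porcine Genome Array, 1 array for each animal. No treatment, diet, sex, family or genotype is given in the labels. Both groups share the cross and the tissue, while the 110 kg is a mean for the series and no weight of single animals is given. The study used males and females and adjusted for sex, family, carcass weight and slaughter date, which could not be done here. By the study's methods no animal carried the stress mutation of RYR1. Per-animal drip loss was not analysed here. The animals come from full-sib families, and the tests treat siblings as independent.

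Working muscle stores glucose as glycogen. PYGM, the muscle glycogen phosphorylase, cuts glucose 1-phosphate from it, PGM1 turns this into glucose 6-phosphate, and PGAM2 acts near the end of glycolysis, shortly before pyruvate is formed. Fast muscle fibres rely on this route and make lactate, while slow fibres rely more on the oxidation of fatty acids and pyruvate in mitochondria. In pork the same route goes on after slaughter, and the acid it makes is one of the factors that decide how much water the meat holds.

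The score separated the animals by these 3 genes by construction, and their values are given as a description. On the scaled log2 scale, PYGM ran from 15.61 to 16.23 (median 15.77) in the 24 high-score muscles and from 14.83 to 15.58 (median 15.43) in the 24 low-score muscles. PGM1 ran from 15.32 to 15.79 (median 15.48) and from 14.30 to 15.29 (median 15.20). PGAM2 ran from 15.78 to 16.31 (median 15.86) and from 14.69 to 15.77 (median 15.50). The separation is thus small, and all 3 genes lie close to the top of the range of the arrays. Within the lower block the score fell from 0.309 to 0.305 across the limit of the high-score group and from -0.082 to -0.112 across that of the low-score group. In the higher block the animals on both sides of the upper limit had scores of 0.312, and the lower limit lay between -0.396 and -0.404, so the limits cut through a continuous series of animals. A single low-score animal of the lower block stood apart at -4.32, the next lowest being at -1.02, and its array is also the brightest of the block.

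The description of these muscles as rich or poor in enzyme transcripts did not hold in the values as the authors deposited them. In the higher block the deposited PYGM intensity ran from 11376 to 13101 (median 12436) in the high-score muscles and from 10586 to 13696 (median 13031) in the low-score muscles. PGM1 had medians of 10450 and 11413 there, and PGAM2 of 13199 and 13597. In the lower block the PYGM medians were 8918 and 8722, those of PGM1 6750 and 7004, and those of PGAM2 9939 and 9837. The deposited values of the 2 groups overlapped for each of the 3 genes in both blocks, and in 4 of the 6 pairs of medians that of the high-score muscles was the lower one, the exceptions being PYGM and PGAM2 in the lower block. The groups are therefore called high-score and low-score muscles here.

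**Figure D1:**
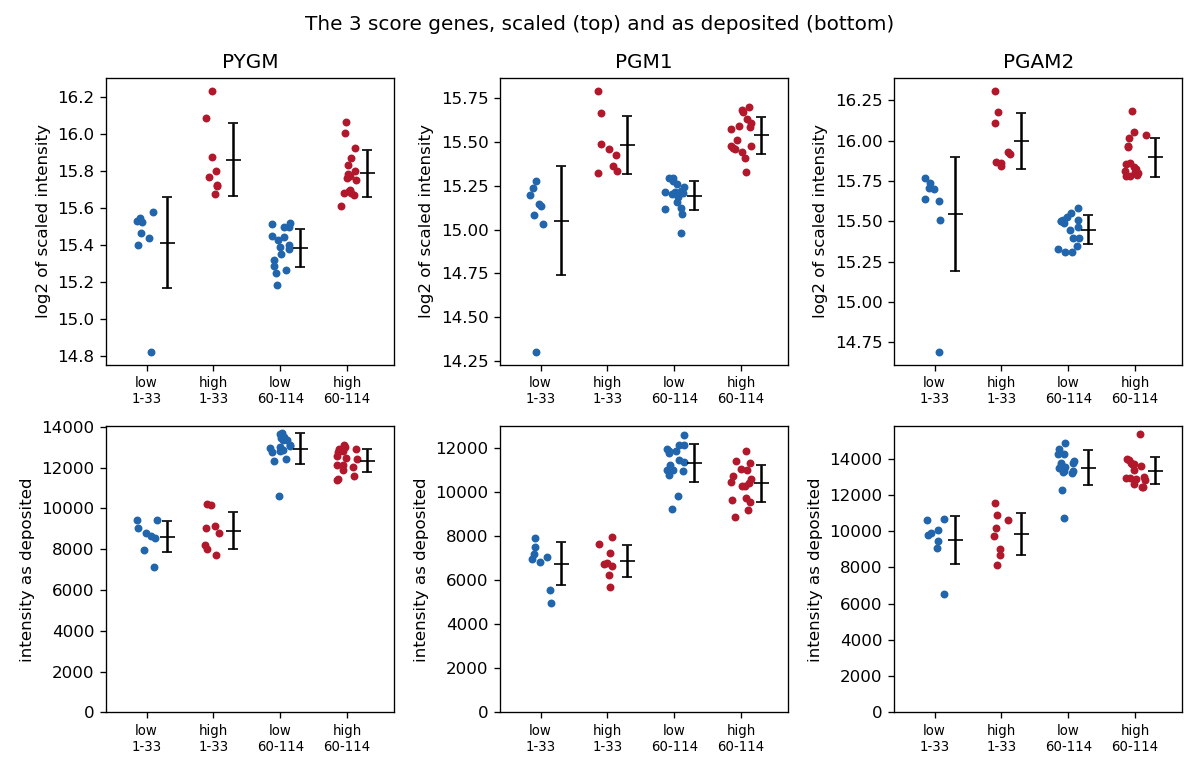
PYGM, PGM1 and PGAM2 in the low-score (blue) and high-score (red) muscles of each label block, as log2 of the scaled intensity (top) and as the intensity deposited (bottom); points are animals, and bars give the mean and SD of 8 (label numbers 1 to 33) or 16 (60 to 114) animals. The groups are apart in the top panels, where they were chosen, and overlap in the bottom panels.

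What separated the groups as well as the score was the brightness of the whole array before scaling. The trimmed mean of the deposited intensities ran from 84.7 to 131 (median 113) in the 16 high-score muscles of the higher block, from 110 to 142 (median 133) in the 18 muscles between, and from 132 to 183 (median 148) in the 16 low-score muscles, so that the high and low groups did not overlap. In the lower block the range was 50.3 to 97.1 (median 74.7) for high, 71.2 to 99.2 (median 86.3) for middle and 83.2 to 123 (median 99.8) for low scores, with some overlap. Averaged over the blocks, the high-score arrays were dimmer by 0.43 on the log2 scale (two-sided permutation test within blocks, p = 1e-05, the smallest that 100000 permutations can give). The scaling divides the score genes by this same array level, so the score holds the log2 level with a minus sign. The difference in level was thus partly built in by the choice of the groups. With each block divided by array level in the same way as by score, 18 of the 24 high-score animals were in the dimmest group, and 18 of the 24 low-score animals were in the brightest.

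Across single animals the score fell with the log2 array level in both blocks, which is partly built in by the scaling. The p values below come from shuffling animals, which does not take this shared term into account. Pearson's r was -0.80 and Spearman's rho -0.77 over the 24 animals of the lower block (permutation p = 3e-05 and 5e-05, adjusted p of r = 0.00015), and r was -0.67 without the 2 animals whose level was farthest from the median. In the higher block r was -0.94 and rho -0.93 over 50 animals (permutation p = 1e-05 for each, adjusted p of r = 1e-04), and r was -0.92 without the 2 farthest. These belong to 10 relations computed together, over which the p values were adjusted. Effects of the score and of the array level on a gene cannot be told apart where the groups do not overlap in level. The sections that follow give scaled and quantile normalized values side by side for many genes. Quantile normalization of the values left the groups as they were, with their difference in array level. Named genes that changed sign with the array level as a covariate are listed at the end.

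**Figure D2:**
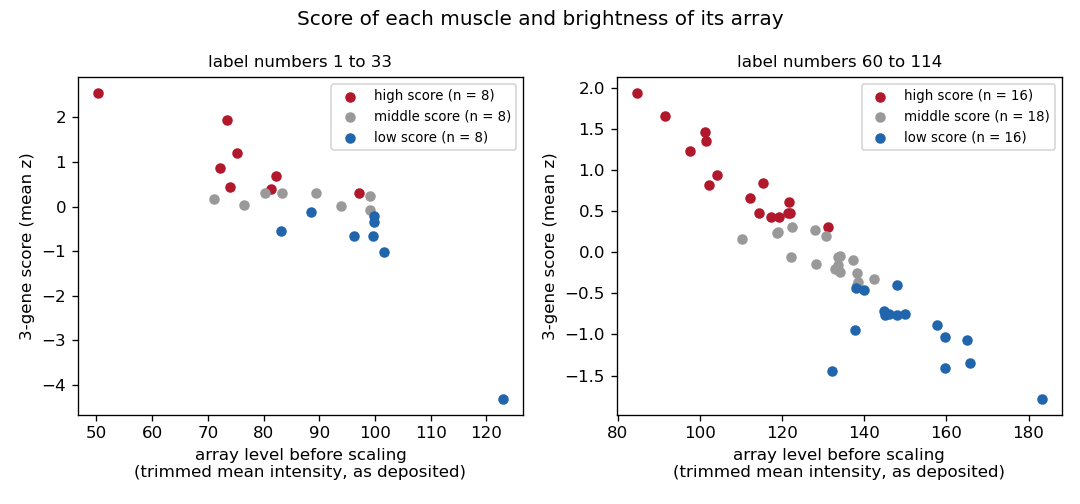
Score of each animal (vertical axis) against the trimmed mean of its array as deposited (horizontal axis), for label numbers 1 to 33 (left, 24 animals) and 60 to 114 (right, 50 animals), coloured by score group. In both blocks high scores lie on dim arrays and low scores on bright ones, and the animal at a score of -4.32 has the brightest array of its block.

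With the score genes left out, 1900 of 11447 probe sets were higher in the high-score muscles and 2065 were lower at an adjusted p under 0.05 (limma, block as a covariate, Benjamini-Hochberg), which is 16.6% and 18% of those tested. Without the animal of the lowest score they were 1944 and 2092. The differences were small: the median over all probe sets was 0.03 on the log2 scale, and single probe sets ran from -1.86 to 1.53. Sign and size both differed between the scales. In the values as deposited, where high-score arrays are dimmer throughout, 2 probe sets were higher and 8466 lower, with a median difference of -0.41. After quantile normalization, which gives all arrays the same distribution of values, 1844 (16.1%) were higher and 2137 (18.7%) lower, and 1690 of the 1900 and 1988 of the 2065 probe sets were called in the same direction. With log2 of the array level as a further covariate no probe set passed limma's adjusted threshold in either direction, the smallest adjusted p was 0.38, and 430 higher and 248 lower had an unadjusted p under 0.05.

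The change was unevenly spread over the range of brightness. Among the 244 probe sets with a median level of 14 or more on the log2 scale, 139 were higher and 6 lower in the high-score muscles, with a median difference of 0.21. After quantile normalization 32 of these were higher and 41 lower, with a median difference of 0.00. Among the 1145 dimmest probe sets 9.26% were higher and 9.61% lower. Which genes make up this brightest class was not counted. The median level was 15.74 for the fast fibre genes tested, 14.61 for the cytosolic ribosome and 12.32 for glycolysis. Each of these lists is given below on both scales.

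**Figure D3:**
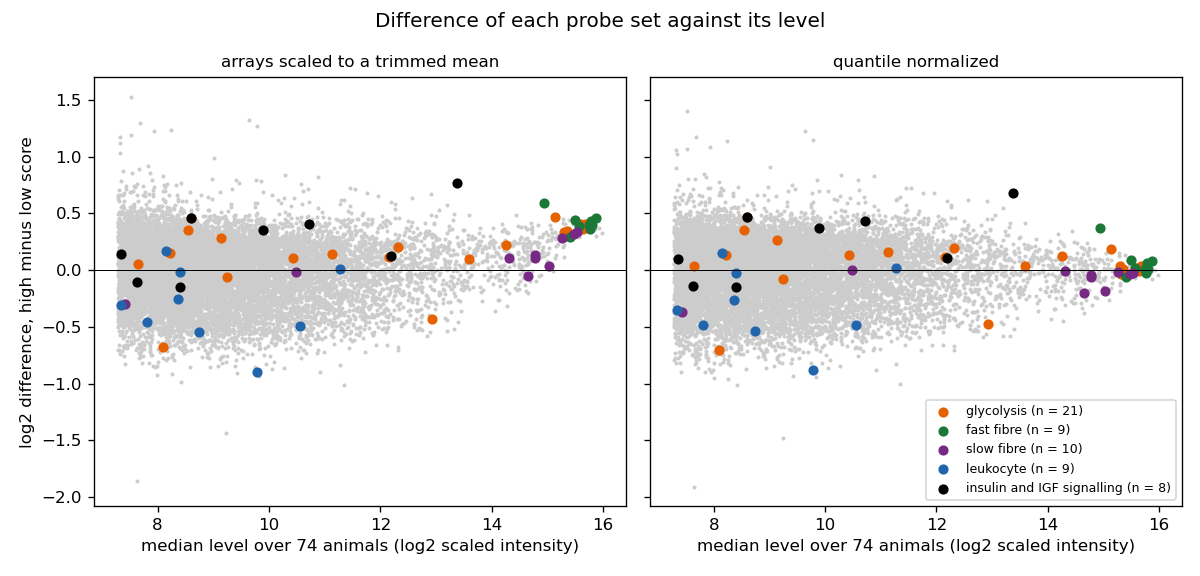
Log2 difference of each of 11447 probe sets, high minus low score (vertical axis), against its median level over the 74 animals (horizontal axis, log2 of scaled intensity), with arrays scaled to a trimmed mean (left) or quantile normalized (right); 5 gene lists are coloured, 1 probe set for each gene. The brightest probe sets sit above 0 on the left and around 0 on the right, while the lowest leukocyte point, CD163 (-0.90 and -0.88), and the highest point of insulin and IGF signalling, IGF2 (0.77 and 0.68), lie away from 0 on both sides.

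Of the 21 genes of glycolysis tested beside PGAM2, 10 were higher and 2 lower, against 16.6% and 18% of all probe sets. Their median difference was 0.22, against 0.03 over all probe sets. After quantile normalization 4 were higher and 2 lower, with a median of 0.04. GPI, which converts glucose 6-phosphate to fructose 6-phosphate, ran from 15.06 to 15.77 (median 15.29) in high-score and from 14.06 to 15.09 (median 14.95) in low-score muscles. Its groups touched only at the edge, and the difference was 0.47 ± 0.06 (SE, n = 24 a side, limma adjusted p = 1.5e-07) and 0.19 after quantile normalization (limma adjusted p = 0.0015). GAPDH, the dehydrogenase in the middle of the pathway, ran from 15.65 to 16.35 (median 15.87) in high-score and from 15.21 to 15.77 (median 15.53) in low-score muscles, a difference of 0.41 ± 0.04 (limma adjusted p = 1.7e-09) that shrank to 0.04 (limma adjusted p = 0.095) after quantile normalization. All 4 GAPDH probe sets were higher, by 0.40 to 0.42, and only the dimmest of them, at a level of 10.23, kept its call in quantile normalized values (0.42).

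ENO3, the muscle enolase, was higher by 0.40, LDHA, which makes lactate, by 0.36, PGK1 by 0.35, TPI1 by 0.34 and PFKM, the muscle phosphofructokinase, by 0.30. After quantile normalization these 5 lay between -0.03 and 0.04, none was called, and LDHA and PFKM changed sign. In deposited units, ENO3 had medians of 12385 in high-score and 12715 in low-score muscles of the higher block, and of 8721 and 8459 in the lower block, with overlapping ranges. The enolase of most other tissues, ENO1, was higher by 0.20 and lost its call in quantile normalized values.

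Dimmer genes of sugar use moved on both scales. SLC2A4, the insulin-dependent glucose transporter GLUT4, ran from 7.48 to 9.77 (median 8.88) in high-score and from 7.43 to 9.16 (median 8.25) in low-score muscles. The groups overlapped widely, and the difference was 0.46 ± 0.13 (limma adjusted p = 0.0063) and 0.47 after quantile normalization. By block it was 0.68 in the higher and 0.03 in the lower. The interaction of 0.65 did not pass (limma adjusted p = 0.33), so a difference between the blocks is not shown. PFKFB4, which makes and breaks the activator of phosphofructokinase, was higher by 0.35 on either scale and lost its call with the 3'/5' ratio of control transcripts, a measure of RNA integrity, as a covariate (0.26). LDHB, the lactate dehydrogenase subunit typical of heart and oxidative muscle, was lower by 0.43 ± 0.15 (limma adjusted p = 0.023) and by 0.48 after quantile normalization, and it lost its call with the 3'/5' ratio as a covariate (-0.36). GPD2, the mitochondrial glycerol 3-phosphate dehydrogenase, was lower by 0.68 and 0.71. Among the 9 genes that did not pass were PKM (0.11), HK1 (-0.06), BPGM (0.11) and the cytosolic GPD1 (0.22, limma adjusted p = 0.060). HK2 and ALDOA have no probe set of that symbol in the annotation used and were not analysed here.

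Glycogen metabolism beyond the score genes showed no common direction: of 9 genes tested, 1 was higher, 2 were lower and the median difference was -0.01. These few calls stand beside 16.6% higher and 18% lower over all probe sets. GYS1, the muscle glycogen synthase, ran from 11.50 to 12.42 (median 11.99) in high-score and from 10.35 to 12.33 (median 11.53) in low-score muscles, a difference of 0.41 ± 0.10 (limma adjusted p = 0.0015). UGP2, which makes the UDP-glucose that GYS1 uses, was lower by 0.39 ± 0.10 (limma adjusted p = 0.0024), so 2 neighbouring steps of synthesis differed in opposite directions. PPP1CB, a catalytic subunit of the phosphatase that acts on glycogen synthase and phosphorylase, was lower by 0.43 ± 0.09 (limma adjusted p = 0.00062). All 3 kept call and direction after quantile normalization (0.43, -0.40 and -0.42). GYG1, the glycogenin that primes glycogen, had a difference of 0.02, and PHKB, a subunit of the kinase that activates PYGM, one of -0.16, and neither passed.

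Lactate leaves fast fibres through SLC16A3, the monocarboxylate carrier MCT4, which needs the chaperone BSG to reach the membrane. SLC16A3 ran from 9.17 to 11.81 (median 10.29) in high-score and from 8.72 to 11.88 (median 9.58) in low-score muscles. The ranges were nearly the same, since levels were higher in the lower block in both groups, and within each block the high-score mean lay higher; the difference was 0.66 ± 0.18 (limma adjusted p = 0.0034), with 0.53 in the lower and 0.73 in the higher block and 0.25 with the array level as a covariate (not called). BSG was higher by 0.36 ± 0.11 (limma adjusted p = 0.010). Both kept their calls after quantile normalization, at 0.70 and 0.38, but with the array level as a covariate BSG lay at -0.04 and was not called. As deposited, SLC16A3 had medians of 361 in both groups of the lower block and of 229 and 191 in the higher. CA3, the carbonic anhydrase of slow fibres, had a difference of 0.08 and did not pass, and it was lower by 0.15 in quantile normalized values (limma adjusted p = 0.030).

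Pyruvate can instead enter mitochondria, and of 18 genes of this step 4 fell and 1 rose on both scales, near the 18% of all probe sets that were lower, with a median of -0.01. The dihydrolipoyl dehydrogenase DLD was lower by 0.40, DLAT, another subunit of the pyruvate dehydrogenase complex, by 0.23, the pyruvate carrier subunit MPC2 by 0.25 and the mitochondrial malic enzyme ME2 by 0.46. PC, the pyruvate carboxylase, was higher by 0.40. PDHA1 and PDHB, which form the catalytic core of the complex, had differences of -0.05 each and did not pass. DLAT lost its call after quantile normalization and the other 4 kept theirs.

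Phosphocreatine and adenylate enzymes keep ATP up during contraction, and 6 of 9 were higher and 1 lower (median 0.32). After quantile normalization 4 were higher and 1 lower (median 0.11). Over all probe sets 16.6% were higher and 18% lower before it. CKM, the muscle creatine kinase, ran from 15.78 to 16.34 (median 15.91) in high-score and from 15.07 to 15.70 (median 15.59) in low-score muscles. The groups were apart by a gap of only 0.08, and how many of all probe sets share this was not counted. The difference was 0.40 ± 0.04 (limma adjusted p = 2.7e-09), and it was 0.01 after quantile normalization. AMPD1, the muscle AMP deaminase, was higher by 0.34 and by 0.04 (not called) on the second scale. The creatine transporter SLC6A8 (0.41), GAMT, which makes creatine (0.32), and the purine enzymes ADSSL1 (0.36) and ADSL (0.30) were higher on both scales, while the mitochondrial adenylate kinase AK3 was lower by 0.52. Of 7 subunits and activators of the AMP-activated kinase, only PRKAB2 passed, lower by 0.34 (limma adjusted p = 0.018). PRKAG3, the muscle subunit known for its effect on glycogen in pigs, had a difference of 0.27 ± 0.15 and did not pass (limma adjusted p = 0.16).

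All 9 fast fibre genes tested were higher, by 0.29 to 0.59 (median 0.40), beside 16.6% of all probe sets higher and 18% lower. Of 10 slow fibre genes 3 were higher, none was lower and 7 did not pass, with differences from -0.30 to 0.34 (median 0.11). After quantile normalization 3 fast fibre genes were higher and no slow fibre gene was called in either direction at an adjusted p under 0.05 by limma; MYL1 and MYOZ1 among the fast and 9 of the 10 slow genes then had a difference at or below 0. MYH2, the myosin heavy chain of fast oxidative fibres, ran from 15.86 to 16.33 (median 16.02) in high-score and from 13.30 to 15.83 (median 15.70) in low-score muscles and did not overlap. MYH7, the slow myosin heavy chain, ran from 15.15 to 16.05 (median 15.63) and from 14.13 to 15.55 (median 15.37). The groups of MYL1 and TPM1 did not overlap either. With CKM and MYH2 they were the 4 named genes without overlap, by gaps of only 0.02 to 0.08. The share over all probe sets was not counted, so the lack of overlap is not read as a trait of these genes. The MYH2 and MYH7 differences were 0.46 ± 0.10 and 0.32 ± 0.07 (limma adjusted p = 0.00057 and 0.00069), and 0.08 and -0.03 after quantile normalization, neither called. The fast fibre genes whose call held were ATP2A1, the calcium pump of fast fibres, at 0.59 and 0.37, and the troponins TNNT3 (0.43 and 0.06) and TNNC2 (0.44 and 0.09). Those whose call was lost were MYH2, the light chains MYL1 (0.37) and MYLPF (0.40), TPM1 (0.40), TNNI2 (0.39) and MYOZ1 (0.29), and so were the slow fibre genes MYL2 (0.34) and TNNT1 (0.29), which turned to -0.02 and -0.01.

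Genes that release calcium to start contraction included 3 of 7 that were higher, beside 16.6% of all probe sets higher and 18% lower. RYR1, the release channel, was higher by 0.33 ± 0.06 (limma adjusted p = 8.2e-05) and by 0.24 after quantile normalization. ORAI1, the store-operated channel of the surface membrane, was higher by 0.36 and 0.39. SLN, a small inhibitor of the calcium pump, was higher by 0.36 and lay at -0.01 on the second scale. Among 14 structural genes of the fibre, 4 were higher and 1 lower, beside the same shares over all probe sets. This turned to 0 and 2 after quantile normalization. NEB went from 0.28 to -0.02. TTN, the giant spring protein titin, went from 0.20 (limma adjusted p = 5.7e-05) to -0.13 (limma adjusted p = 0.0040), which is a called reversal.

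**Figure D4:**
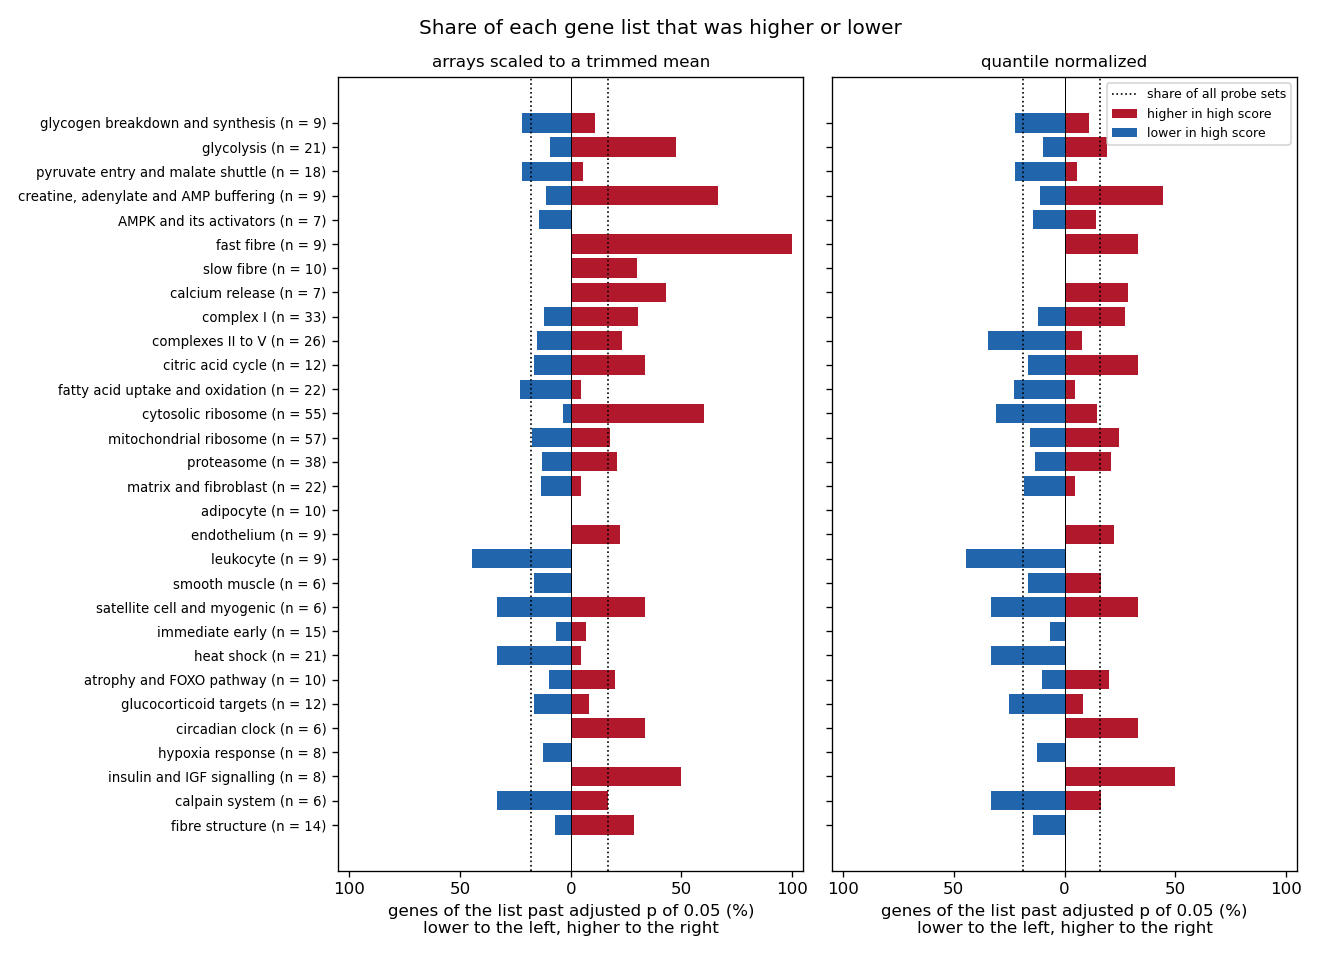
Share of the genes of each list (lists with 5 or more genes tested) that were higher (red, to the right) or lower (blue, to the left) in high-score muscles at an adjusted p under 0.05, with arrays scaled (left) or quantile normalized (right); dotted lines mark the share of all 11447 probe sets. Fast fibre, slow fibre, glycolysis and cytosolic ribosome lists lose most of the length of their red bars on the right, while the blue bars of the leukocyte, heat shock and fatty acid lists and the red bar of insulin and IGF signalling have the same length on both sides.

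Mitochondrial lists held genes called in both directions, as did all probe sets tested (16.6% higher and 18% lower). Of 33 subunits of complex I, the entry of the respiratory chain, 10 were higher and 4 lower (median 0.13). NDUFA3 ran from 12.67 to 14.20 (median 13.09) in high-score and from 11.74 to 13.38 (median 12.73) in low-score muscles, while NDUFA5 ran from 8.41 to 11.19 (median 10.18) and from 10.18 to 11.39 (median 10.77). The former was higher by 0.48 ± 0.08 and the latter lower by 0.71 ± 0.15 (limma adjusted p = 1.6e-05 and 0.00034), on subunits of the same complex. NDUFB11 (0.35) and NDUFB10 (0.32) were on the first side and NDUFC1 (-0.51) on the second. Complexes II to V held 6 higher and 4 lower of 26, which became 2 higher and 9 lower after quantile normalization. In the citric acid cycle CS (0.37), IDH3G (0.31) and OGDH (0.28) were higher, and both succinyl-CoA ligase genes, SUCLA2 (-0.66) and SUCLG2 (-0.57), were lower.

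Of 22 genes of fatty acid uptake and oxidation 5 were lower and 1 higher on both scales, near the 18% of all probe sets that were lower, and the median was -0.01. DECR1, an auxiliary enzyme for unsaturated fatty acids, ran from 7.84 to 10.04 (median 8.86) in high-score and from 9.10 to 10.36 (median 9.71) in low-score muscles, a difference of -0.73 ± 0.13 (limma adjusted p = 8.3e-05). The medium-chain dehydrogenase ACADM was lower by 0.53, the long-chain ACADL by 0.66 and ETFA, which takes their electrons, by 0.45. TFAM, which packs and transcribes mitochondrial DNA, was lower by 0.64 ± 0.10 (limma adjusted p = 1.3e-05), whereas PPARGC1A, the coactivator that drives mitochondrial growth, had a difference of 0.09 ± 0.37 and did not pass. Of 57 mitochondrial ribosomal proteins, 10 were higher and 10 lower, near the 16.6% and 18% of all probe sets.

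Of 55 proteins of the cytosolic ribosome, 33 were higher and 2 lower (median 0.17). After quantile normalization 8 were higher and 17 lower (median -0.03), so the 2 scales differed in direction for this family. RPS13 (0.40 and 0.19), RPS28 (0.36 and 0.10) and RPS26 (0.29 and 0.07) were higher on both scales. The proteasome degrades proteins, and of its 38 subunits tested 8 were higher and 5 lower on either scale. These counts lie near the 16.6% and 18% of all probe sets. PSMD4 (0.45) and PSMD3 (0.35) were higher, and PSMC6 (-0.56) and PSMD12 (-0.51) were lower.

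Chaperones help proteins fold under stress. Of 21 heat shock genes 7 were lower and 1 higher, against 18% and 16.6% of all probe sets. After quantile normalization 7 were lower and 0 higher, against 18.7% and 16.1%. HSPH1 ran from 9.24 to 13.14 (median 10.98) in high-score and from 10.27 to 13.20 (median 11.65) in low-score muscles, a difference of -0.69 ± 0.22 (limma adjusted p = 0.015). DNAJA1 was lower by 0.61, HSPA4 by 0.48 and the endoplasmic HSP90B1 by 0.47, and the small heat shock protein HSPB1 was higher by 0.36 and lost its call on the second scale. The calpain system, which degrades fibre proteins in meat, had 1 of 6 genes higher and 2 lower. The atrophy and FOXO list had 2 of 10 higher and 1 lower. These small counts stand beside 16.6% higher and 18% lower over all probe sets. CAST, calpastatin, the inhibitor of the calpains that soften meat, was lower by 0.58 ± 0.11 (limma adjusted p = 9.4e-05), and CAPN1, the calpain it inhibits, was higher by 0.26 ± 0.09 (limma adjusted p = 0.017). Both kept call and direction in quantile normalized values, at -0.57 and 0.29.

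The insulin and IGF pathway had 4 of 8 genes higher and none lower on both scales (median 0.25). Over all probe sets the shares were 16.6% and 18%, and 16.1% and 18.7% after quantile normalization. AKT2, the kinase through which insulin brings GLUT4 to the membrane, ran from 10.24 to 11.61 (median 10.98) in high-score and from 10.22 to 11.00 (median 10.53) in low-score muscles, and its difference was 0.41 ± 0.07 (limma adjusted p = 1.7e-05), with 0.47 in the lower and 0.38 in the higher block. AKT1 was higher by 0.36. IGF2, an imprinted growth factor with a large effect on muscle growth in pigs, ran from 12.64 to 15.09 (median 13.69) in high-score and from 11.20 to 14.45 (median 13.15) in low-score muscles by its brightest probe set. The groups overlapped over most of this range, and the difference was 0.77 ± 0.19 (limma adjusted p = 0.0023). Of 10 IGF2 probe sets tested, 7 were higher, by 0.45 to 0.82, and these share a transcript and are no replicates of each other. In deposited units the IGF2 medians of high-score and low-score muscles were 2563 and 1922 in the lower block and 2705 and 2444 in the higher. The ranges overlapped widely, from 1078 to 4117 and from 687 to 4462 in the higher block. For AKT2 the deposited medians were 361 and 346 in the lower block and 404 and 431 in the higher. With the array level as a covariate the IGF2 difference was 0.72 and was not called. IGF1R, the receptor of both IGFs, had a difference of 0.15 and IGF1 one of -0.10, and neither passed.

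**Figure D5:**
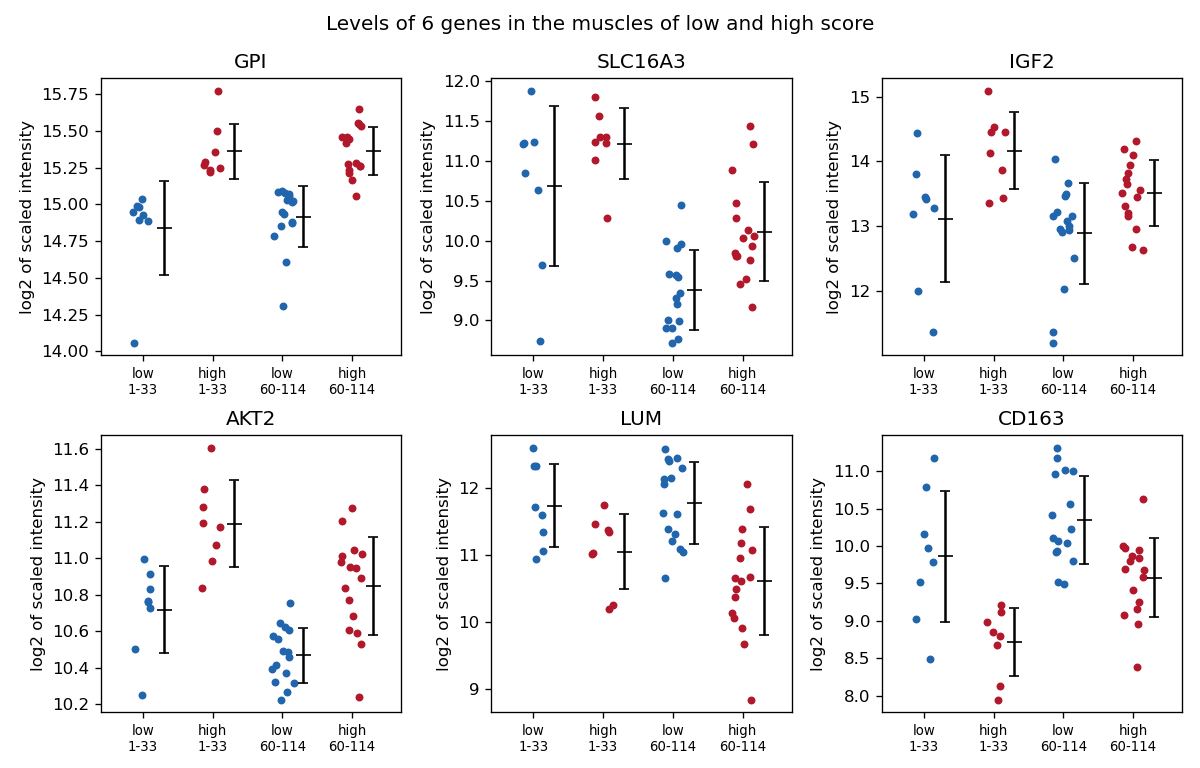
Level (log2 of scaled intensity) of GPI, SLC16A3, IGF2, AKT2, LUM and CD163 in low-score (blue) and high-score (red) muscles of each label block; points are animals, bars the mean and SD of 8 (label numbers 1 to 33) or 16 (60 to 114) animals. The mean is higher in high-score muscles for the first 4 genes and lower for LUM and CD163 in both blocks, and over all 48 animals the groups overlap for each gene.

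The 12 largest called decreases of probe sets with a symbol included SPP1, LUM, CD163, SRGN, CTSS and GPNMB. SPP1, osteopontin, which macrophages secrete, ran from 3.24 to 12.05 (median 8.50) in high-score and from 5.17 to 13.88 (median 9.99) in low-score muscles, a range so wide that its difference of -1.44 came with an SE of 0.51 (limma adjusted p = 0.024). LUM, the proteoglycan lumican, which spaces collagen fibrils, ran from 8.85 to 12.07 (median 10.82) and from 10.66 to 12.60 (median 11.67), a difference of -1.01 ± 0.19 (limma adjusted p = 1e-04). CD163, the haemoglobin scavenger receptor of tissue macrophages, ran from 7.94 to 10.62 (median 9.23) and from 8.49 to 11.31 (median 10.09), a difference of -0.90 ± 0.17 (limma adjusted p = 0.00012). SRGN (-0.93), a proteoglycan of blood cell granules, the lysosomal protease CTSS (-0.87) and the macrophage glycoprotein GPNMB (-0.85) were lower as well. All 6 kept their calls after quantile normalization. With the array level as a covariate none was called, and the differences were -0.29 for SPP1, -0.57 for LUM, -0.70 for CD163, -0.44 for SRGN, -0.25 for CTSS and -0.52 for GPNMB. With the 3'/5' ratio of control transcripts as a covariate SPP1 lost its call (-0.87, limma adjusted p = 0.19), and the other 5 kept theirs. In deposited units LUM had medians of 367 in high-score and 644 in low-score muscles of the lower block and of 348 and 1199 in the higher.

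Over the whole leukocyte list 4 of 9 genes were lower and none higher (median -0.31), against 18% and 16.6% of all probe sets. The 4 were CD163, AIF1 (-0.46), C1QA (-0.54) and C1QC (-0.49). The 9 scaled intensities summed to 3470 to 17200 (median 6080) in high-score and 3770 to 15600 (median 8500) in low-score muscles. With the 3'/5' ratio as a covariate only CD163 of the 9 was called lower (limma, -0.73), the median was -0.14, and AIF1 (-0.34), C1QA (-0.35) and C1QC (-0.28) did not pass. In whole muscle, fewer cells of a type and less RNA per cell cannot be told apart. The matrix and fibroblast list had 3 of 22 lower, a share below the 18% of all probe sets (LUM, LAMB1 at -0.45 and FBN1 at -0.37) and 1 higher (LAMB2 at 0.23), with sums from 72200 to 148000 (median 101000) and from 50200 to 138000 (median 113000). No marker of these lists that was tested was at the floor of the scale in any animal.

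Calls among markers of the other cells in muscle stand beside 16.6% of all probe sets higher and 18% lower. Endothelial genes had 2 of 9 higher, ESAM (0.34) and ENG (0.42). None of 10 adipocyte genes passed limma's adjusted threshold, and their median difference was 0.32. The blocks differed: all 10 were positive in the lower block (median 1.35) and 4 in the higher (median -0.17), none called. With the array level as a covariate all 10 were positive (median 1.20), again none called. SCD, the desaturase of fat cells, ran from 8.16 to 13.67 in high-score and from 8.23 to 14.06 in low-score muscles. Its difference was 0.72 ± 0.49, and ADIPOQ, adiponectin, had one of -0.26 ± 0.35. No adipocyte gene had an unadjusted p under 0.05 either, the smallest being 0.074 for RETN. The smooth muscle and pericyte marker RGS5 (1 of 6 tested) was lower by 0.46 and the haemoglobin gene HBB (1 of 2) by 0.47, both passing. S100B, a Schwann cell marker (1 of 2), was lower by 0.34. Of 6 myogenic genes tested, MYOD1 (0.43) and MEF2D (0.22) were higher, MEF2A (-0.52) and SIX4 (-0.47) lower, and 2 did not pass.

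Apart from IGF2, most of the largest called increases were on dim probe sets near the lower limit of those tested, which lay at 7.29. HGSNAT, a lysosomal acetyltransferase, ran from 6.61 to 8.69 (median 7.86) in high-score and from 5.00 to 8.19 (median 6.88) in low-score muscles, a difference of 0.86 ± 0.20 (limma adjusted p = 0.0013), but a second HGSNAT probe set had 0.16 and did not pass. HRG (1.19), CEACAM16 (0.89), TMEM265 (0.79), GCM1 (0.76), CCDC51 (0.74), CLTA (0.73) and SLC39A5 (0.69) had median levels of 7.34 to 7.78, and PTOV1 (0.73) one of 7.94. For CCDC51, CLTA and TMEM265 too a further probe set did not pass. HRG and CEACAM16 lost their calls after quantile normalization. The HRG difference was 2.865 in the lower and 0.355 in the higher block, and the interaction did not pass (limma adjusted p = 0.25). CLEC3B, tetranectin, at a level of 9.85, was higher by 0.79 ± 0.25 (limma adjusted p = 0.012), and ALDH1L1, a folate enzyme, by 0.77. The other large decreases were in AGPAT5 (-0.92), ANXA4 (-0.91), GADD45A (-0.90), ZKSCAN5 (-0.86), SLMAP (-0.86) and IPO11 (-0.85), all called on both scales. ANXA4 differed by -0.12 in the lower and by -1.30 in the higher block, and the interaction did not pass (limma adjusted p = 0.098).

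Stress and clock genes were mostly not called, beside 16.6% of all probe sets higher and 18% lower. Of 15 immediate early genes, GADD45A was lower and JUN higher (0.25), of 8 hypoxia genes only VEGFA passed (-0.39), and of 12 glucocorticoid targets PER1 was higher (0.46) and FKBP5 (-0.63) and KLF9 (-0.46) lower. The clock output gene DBP ran from 9.07 to 11.17 (median 10.33) in high-score and from 8.36 to 10.93 (median 9.45) in low-score muscles and was higher by 0.69 ± 0.18 (limma adjusted p = 0.0030). Its partner PER1 was the only other of 6 clock genes that passed. The labels give no time of slaughter.

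RNA integrity, read as the log2 ratio of the 3' to the 5' end of control transcripts, also differed between the groups. The ratio of the elongation factor transcript was 0.81 ± 0.28 (SD, n = 24) in high-score and 0.59 ± 0.25 in low-score muscles (two-sided permutation test within blocks, p = 0.0059), while those of GAPDH (p = 0.51) and actin (p = 0.16) did not pass. With the mean of the ratios as a covariate 1694 probe sets were higher and 1884 lower, of which 1501 and 1723 were among those of the comparison without it. Of 136 differences of named genes 15 lost their call in that fit, 3 of them among the 4 leukocyte genes.

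The comparison was then looked at in separate animals. In the higher block alone, 16 against 16 animals, 1414 probe sets (12.4%) were higher and 1557 (13.6%) lower. In the lower block alone, 8 against 8, none passed limma's adjusted threshold, the smallest adjusted p was 0.058, and 1253 higher and 1360 lower had an unadjusted p under 0.05. Of the 1414 called higher in the higher block, 1197 (84.7%) had the same sign in the animals of the lower block, against 51.9% of all probe sets, and 431 (30.5%) had an unadjusted p under 0.05 in that direction, against 10.9%. Of the 1557 called lower, 1397 (89.7%) had the same sign, against 48.1%, and 572 (36.7%) passed unadjusted, against 11.9%. The array level ran with the score in both blocks, and its part in this was not tested.

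Within the 26 animals between the groups, no probe set followed the score at an adjusted p under 0.05 by limma (smallest 0.16), and 300 rose and 278 fell with it at an unadjusted p under 0.05, which is 5.05% of those tested. The sign was still shared: 1523 of the 1900 higher probe sets (80.2%) rose with the score in these animals, against 49.3% of all, and 1675 of the 2065 lower ones (81.1%) fell, against 50.7%. The score spans a narrow range in them, from -0.396 to 0.312, and the medians of their array levels lie between those of the outer groups. These animals do not separate the score from the array level either. In the higher block the one of the lowest score (-0.396) had a level of 138 and that of the highest (0.312) one of 122. The part of the array level in the shared sign was not tested.

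Finally the 3 genes were scored again in quantile normalized values, where the array level and the score had r of -0.37 and rho of 0.04 in the lower block (permutation p = 0.075 and 0.85) and r of -0.23 and rho of -0.34 in the higher (permutation p = 0.11 and 0.017). The adjusted p of r was 0.15 and 0.19, and r without the 2 farthest animals was 0.11 and -0.20. Of the 24 high-score animals 11 were again in the highest group and 5 were in the lowest, and of the 24 low-score animals 12 were again in the lowest and 6 were in the highest. Between these new groups 0 probe sets (0%) were higher and 2 (0.0175%) lower by limma, with 881 and 834 at an unadjusted p under 0.05. One of the 2 was LDHB, lower by 0.72 ± 0.14 (limma adjusted p = 0.037), and the other has no symbol. IGF2 probe sets lay between -0.16 and 0.10 in this comparison and LUM at -0.30, none called, while SPP1 had -1.35 (unadjusted p = 0.0092) and CD163 -0.43 (unadjusted p = 0.020).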

How the data were processed

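Total RNA of 74 muscles was hybridized by the authors to 1-colour arrays, 1 for each animal, scanned and analysed with GCOS 1.1.1, with MAS5 present calls and PLIER estimates, per the labels and the study's methods. The deposited table holds linear intensity values made by the authors; no source used here says by which algorithm. Of its 24123 probe sets, 124 are controls. The array levels are not at the stated target, so the values of an array were multiplied to give a trimmed mean of 500 (2% left out at each end), values under 1 were set to 1, and log2 was taken. The 11453 probe sets of highest median stood in for the present calls, which were not used here; the 6 of the score genes were left out, and 11447 were tested. Symbols come from the platform annotation: 6153 of the kept probe sets have 1 symbol, 130 several and 5170 none. A gene with several probe sets is given by that of the highest median, except among the largest differences.

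High-score and low-score groups were compared with limma 3.58.1 in R 4.3.3 (trended variance, block as covariate, two-sided, Benjamini-Hochberg over all probe sets tested); the continuous score in the middle animals and the block by group interaction were fitted likewise. Permutation tests used 100000 draws within blocks. The fit was tested on simulated data. The 34 lists hold 737 genes, of which 498 were tested. Genes are named by rule: the 12 largest differences in each direction among called probe sets that have 1 symbol and the same sign in both blocks, 1 per gene, every called gene of the sugar, lactate, creatine, AMPK and fibre type lists, and up to 4 of each other list by p. SCD, ADIPOQ, RETN, PPARGC1A, IGF1 and IGF1R were chosen after their values were seen. The members and lists were chosen with earlier results of these data known. The other genes were measured on the same arrays, and with the same scaling, as the score. With 1 array for each animal, the number of arrays limits the precision. Alternatives were the pseudocount, quantile normalization, deposited values, all probe sets, a continuous score, single blocks, array level or 3'/5' ratio as covariate, single score genes, z within blocks and smaller outer groups.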

Additional observations from a re-analysis of the deposited data

Results flagged for a closer look

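Among the 8 animals of a score group in the lower label block, 4 values stood farther from the rest than Dixon's critical value allows. In all, 15 groups of values were looked at, and chance marks about 1 in 20 of normal samples. The groups were cut from the ranked score, which also holds the array level, so this rate does not apply to those measures. In the low-score group, 1 animal had a score of -4.32 (the next was -1.02) and, as the same animal, an array level of 123 (the next 102). A 3'/5' log2 ratio of GAPDH of -0.0516 stood apart in the low-score group (next 0.0954), and one of the elongation factor of 0.341 in the high-score group (next 0.533).

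The difference between score groups differed between the blocks, by an interaction term in limma, for 20 probe sets, 8 with a more positive difference in the higher block and 12 with a more negative one, against 695 and 640 at an unadjusted p under 0.05. Of these, 11 have a symbol. AKAP13 had the widest gap, at 2.23 (-1.81 in the lower and 0.42 in the higher block), followed by MACF1 at 1.36 (-1.07 and 0.29), EIF4EBP2 at 0.80 (-0.65 and 0.15) and NGDN at 0.74 (-0.49 and 0.25). The gap was negative for ARL2 at -0.70 (0.69 and -0.01), SMIM19 at -0.69 (0.09 and -0.59), C5H12orf57 at -0.65 (0.43 and -0.22), EF1ALPHA at -0.59 (0.36 and -0.23) and SSR2 at -0.43 (0.39 and -0.03). Both probe sets of the ribosomal protein RPS18 that passed had -0.41, from 0.44 to 0.03 and from 0.30 to -0.11. Adjusted p ran from 0.036 to 0.050.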

How the results depend on the processing

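The counts of 1900 higher and 2065 lower probe sets stayed within 1.5 times under 13 of 18 alternatives. In the values as deposited, where the high-score arrays are dimmer, they were 2 and 8466. The lower label numbers alone (fewer animals), the array level as a covariate, and quantile normalized values with that covariate each gave 0 and 0, and a score made again in quantile normalized values gave 0 and 2. The last 2 of these were chosen after seeing the data, like deposited values over the array median (2055 and 1962) and leaving out the animal of the lowest score (1944 and 2092). Among the middle animals 0 probe sets followed the score, with or without the filter on dim probe sets.

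Of 136 differences of named genes, 105 kept direction and call after quantile normalization, 21 lost the call and 10 changed sign: LDHA (-0.01), PFKM (-0.03), MYL1 (-0.02), MYOZ1 (-0.06), MYH7 (-0.03), MYL2 (-0.02), TNNT1 (-0.01), SLN (-0.01), NEB (-0.02) and TTN (-0.13, called lower). With the array level as a covariate none was called and 16 changed sign: DLD (0.02), BSG (-0.04), ADSSL1 (-0.04), GAMT (-0.04), MYH7 (-0.04), MYL2 (-0.07), TNNT1 (-0.10), ATP5G2 (-0.02), ATP5A1 (-0.01), CS (-0.02), FBN1 (0.10), HBB (0.23), S100B (0.05), HSPD1 (0.05), HSPB1 (-0.08) and VEGFA (0.07). In the lower label numbers alone none was called and MAP1LC3A changed sign (-0.07); without the animal of the lowest score it alone lost its call (0.22). The causes were not tested. No paired analysis was possible because the labels give the groups no shared replicate numbers.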
